A study of Mus musculus with 13 samples.

Results

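The forkhead genes were taken as the protein-coding genes of the mouse annotation (GENCODE vM21, mm10) whose symbol is Fox followed by a letter and a number. There were 44 such genes among 21951 protein-coding genes, and all of them enter the counts below. ESR1 peaks were assigned to a gene when they overlapped its body or the 10 kb on either side of it. Some forkhead genes are neighbours, so the 44 windows joined into 42 separate stretches covering 3.12 Mb. The windows that joined were those of Foxc2 and Foxl1 on chromosome 8, and those of Foxd2 and Foxe3 on chromosome 4. Foxf1 near the first pair, and Foxf2, Foxq1 and Foxc1 on chromosome 13, are neighbours whose windows stayed separate. The rule rests on gene symbols alone, although earlier results of these data were known when the family was picked.

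The cells were primary fibroblasts grown out of lower abdominal muscle (LAM) taken from Aromhum mice, which carry the human aromatase gene and form estradiol (E2) from androgens. All groups carried this transgene, so no wild-type cells entered these comparisons. ESR1, the estrogen receptor alpha, was profiled by chromatin immunoprecipitation and sequencing (ChIP-Seq). The 4 treatments were vehicle (ethanol and DMSO), 10 nM E2, 10 nM E2 plus 100 nM fulvestrant, and 100 nM fulvestrant alone, with 3 libraries each. Serum-starved cells received fulvestrant or its solvent for 3 hours before E2 or ethanol was added, and were collected 1 hour after that. Fulvestrant is an ESR1 antagonist that also leads to loss of the receptor. The labels did not say whether replicates came from separate animals or cultures, so p-values measure only the spread between these libraries, which may be technical. Each library had a list of peaks, which are stretches where recovered DNA fragments exceeded the local background. The input sample was not used here.

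Forkhead proteins bind DNA through a winged-helix domain. FOXA members act as pioneer factors that open chromatin, and FOXA1 assists ESR1 in breast epithelium. FOXO members are held out of the nucleus by insulin and growth factor signaling through AKT, and they control cell cycle, stress and atrophy genes in muscle. FOXP members are mostly repressors, and FOXC, FOXF and FOXL members shape the mesenchyme from which fibroblasts derive. ESR1 binds the estrogen response element (ERE), an inverted repeat made of the half-sites GGTCA and TGACC with 3 bases between them.

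E2 replicate 1 and fulvestrant replicate 2 stood apart from the other 10 libraries. In these, 59.4% and 27.9% of all peaks were repeat-masked, against 5.57% to 7.79% elsewhere. Their depth relative to the median library, as far as the local background of the peaks gives it, was 39.1% and 75.8%, against 92.0% to 106%. Their lists held 104571 and 80754 peaks, and the other lists 34293 to 68971. Peaks at the promoters of all 5 fibroblast markers, among them Pdgfra and Col1a1, were present in at least 11 libraries, Esr1 itself in 11. Promoter peaks were common, at 42.3% to 64.2% of all protein-coding genes in each library. Outside the 2 libraries that stood apart, no promoter peak was found at 9 of 10 markers of muscle, immune, endothelial and epithelial cells, and the exception was Cd68, with 9 of 10 libraries. Peaks are not expression, so this does not measure the makeup of the cultures.

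EREs carried a peak in at least 6 libraries at 4 places, more libraries than at any other ERE of the forkhead loci. For that reason 3 of them are shown first. Lying under a peak does not place a site at its summit. Once overlapping peaks were merged, none of these 3 lay within 100 bp of the summit of the best ranked peak. All are written along the + strand of GRCm38 (mm10), with the half-site positions in capitals and 8 bases on either side. They lay at chr5:142402577-142402589 in the Foxk1 promoter, chr5:142440339-142440351 in a Foxk1 intron, and chr8:121128168-121128180 near the Foxl1 start, in the windows of both Foxc2 and Foxl1. The fourth lay downstream of Foxs1, and each of the 4 carried 1 mismatch to the element.
Foxk1 promoter: tgaaatccTGTCAcccTGACCctggacag
Foxk1 intron: gggtgcgtGGTCActcTGTCCgcagtcgc
Foxl1 start: gagcagagGGTCAcacTGAACggcatcta

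The members' windows also held 2 EREs with no mismatch. Neither lay under a peak in any library. One was in a Foxo6 intron at chr4:120273835-120273847, and the other lay upstream, at -3084 bp from the Foxk1 start, at chr5:142398407-142398419.
Foxo6 intron: cttcagcaGGTCAgaaTGACCtcgacctt
Foxk1 upstream: ccatccacGGTCActcTGACCcctgatgt

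In total the windows held 94 EREs with at most 1 mismatch. Of these, 13 (13.8%) lay under a peak of at least 1 library, and 8.50% of such sites did so in the whole genome. These 4 were covered in at least 6 libraries, 4.26% of the sites against 2.07% genome-wide. In the genome 2367 sites had no mismatch, and 21.2% of them lay under a peak, so the 2 bare sites at Foxo6 and Foxk1 were in the larger class.

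Treatment did not divide the 4 covered EREs in the same way. The Foxk1 promoter site was covered in all 12 libraries. The Foxs1 site was covered in 2 of 3 vehicle libraries and in all 9 others. The Foxk1 intron site was covered in 1 of 3 vehicle, 2 of 3 E2, 2 of 3 E2 plus fulvestrant and 3 of 3 fulvestrant libraries. The Foxl1 site was covered in 0 of 3 vehicle, 3 of 3 E2, 2 of 3 E2 plus fulvestrant and 3 of 3 fulvestrant libraries, so the agonist and the antagonist were alike in having a peak there in every library.

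Across the 12 lists, 2127 of 686823 peaks fell in the forkhead windows. Vehicle libraries had 166, 133 and 135 such peaks, and E2 libraries had 223, 199 and 214. With E2 plus fulvestrant there were 134, 164 and 202, and with fulvestrant alone 135, 264 and 158. All 3 E2 libraries were above all 3 vehicle libraries, whereas every other pair of treatments overlapped. The means were 145 ± 18.5 for vehicle, 212 ± 12.1 for E2, 167 ± 34.1 for E2 plus fulvestrant and 186 ± 68.8 for fulvestrant (SD, n = 3). Without the 2 libraries that stood apart, the E2 mean was 207 ± 10.6 and the fulvestrant mean 147 ± 16.3 (SD, n = 2).

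The longer E2 lists bear on this count. As a share of each library's own list, forkhead peaks made up 0.324%, 0.388% and 0.340% in vehicle and 0.213%, 0.327% and 0.310% in E2. In E2 plus fulvestrant the shares were 0.327%, 0.322% and 0.305%, and in fulvestrant alone 0.317%, 0.327% and 0.345%. On this scale the E2 mean, 0.283% ± 0.0613, was below the vehicle mean, 0.350% ± 0.0333 (SD, n = 3), the opposite order to the counts. Without E2 replicate 1 the E2 mean was 0.318% ± 0.0116 (SD, n = 2), still below that of vehicle.

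**Figure D1:**
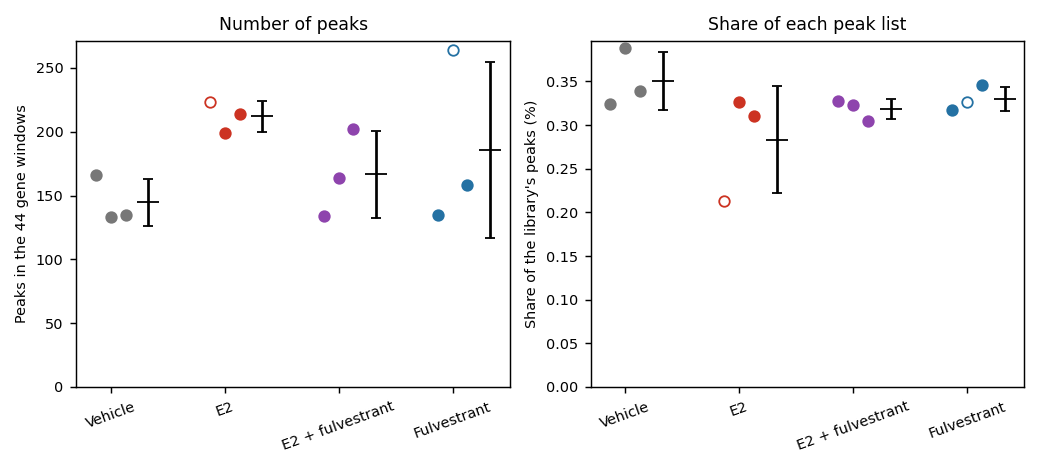
ESR1 peaks in the windows of the 44 forkhead genes, as a number per library and as a percent of that library's list, by treatment. Points are libraries, bars are the mean with the SD (n = 3), and open symbols mark E2 replicate 1 and fulvestrant replicate 2. By number the E2 libraries lie at 199 to 223, above vehicle at 133 to 166, while by share the vehicle mean of 0.350% is above the E2 mean of 0.283%.

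A peak was present in all 12 libraries at 19 of 44 members (43.2%), beside 47.1% of all protein-coding genes. Another 10 had peaks in 1 to 9 of the 10 libraries that did not stand apart. A further 14 (31.8%, against 14.8% of all genes) had peaks only in E2 replicate 1 or fulvestrant replicate 2: Foxo6, Foxl2, Foxd3, Foxn4, Foxd1, Foxb2, Foxd2, Foxb1, Foxr1, Foxi1, Foxi3, Foxd4, Foxi2 and Foxr2. Foxe3 alone had no peak in any library. The number of members with a peak was 42 and 38 in these libraries, in that order, and 21 to 26 in the 10 others.

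The 14 genes just named include the FOXD, FOXB and FOXI groups, which pattern ectoderm, neural tube and other embryonic tissues, and Foxl2, a gene of ovarian granulosa cells. Together they had 35 peaks in the first of these libraries and 20 in the second. Of these 55 peaks, 9.09% were repeat-masked, and their median GC content was 64.2%. Over all forkhead peaks the median GC content was 49.5% to 53.2% in the 10 other libraries, but 61.7% for E2 replicate 1 and 56.7% for fulvestrant replicate 2. High GC content thus moved with these peaks, and its part in them was not tested.

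**Figure D2:**
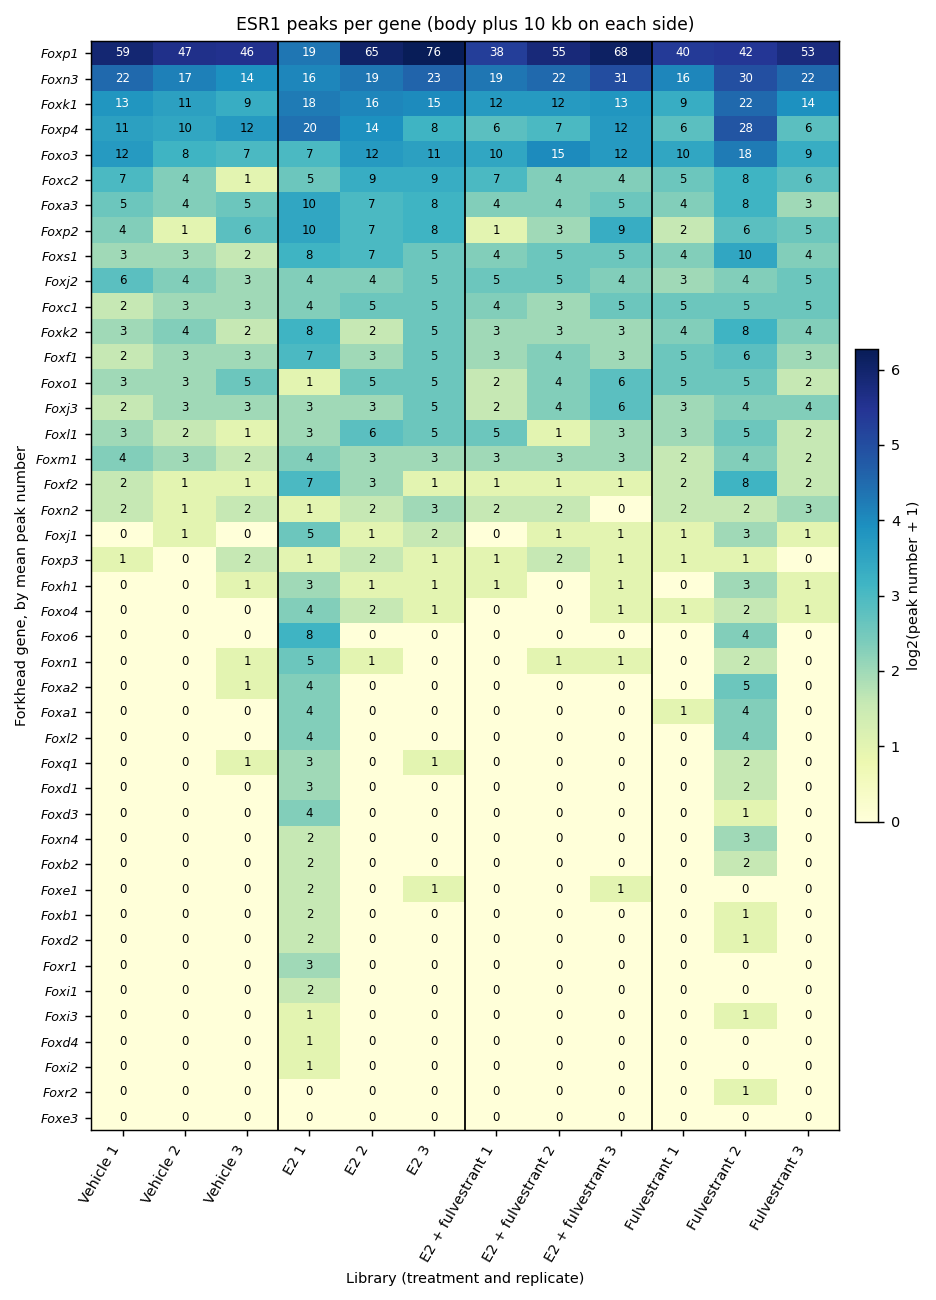
ESR1 peak number for 43 forkhead genes (rows, by mean peak number) in each of the 12 libraries (columns, by treatment and replicate), with color on a log2(peak number + 1) scale. Foxp1 stands at the top with 19 to 76 peaks, and the lower rows hold peaks almost only in E2 replicate 1 and fulvestrant replicate 2.

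Among the FOXP genes, Foxp1 carried the most ESR1 peaks of the family. FOXP1 is a repressor with roles in lung, heart, lymphoid and muscle development, and its gene spans 597 kb at chr6:98925338-99522721 on the - strand. It had 59, 47 and 46 peaks in vehicle, 19, 65 and 76 in E2, 38, 55 and 68 in E2 plus fulvestrant, and 40, 42 and 53 in fulvestrant. The lowest and the highest of the 12 values were both E2 libraries, and the treatments overlapped. The E2 mean was 53.3 ± 30.2 against 50.7 ± 7.23 for vehicle (SD, n = 3), and the two-sided exact permutation test gave p = 0.9. Foxp1 alone held 28.1% of all peaks summed over members, and the top 5 members held 59.7%. By mean peak number it ranked 10 of all 21951 genes, but per 100 kb of window, at 8.21 peaks, it ranked 5007.

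Foxp1 had 150 merged regions, 133 of them intronic. Only 4 had a peak in all 12 libraries and 11 in all 10 libraries other than the 2 that stood apart. The best placed was the promoter region chr6:99518382-99523762, which on average ranked in the top 2.08% of a library's list. Its fold enrichment over local background was 7.73, 4.76 and 5.03 in vehicle and 26.4, 7.21 and 10.1 in E2. It was 8.30, 6.97 and 7.78 in E2 plus fulvestrant and 9.35, 13.6 and 4.16 in fulvestrant. The highest values came from E2 replicate 1 and fulvestrant replicate 2, which also had the highest median fold of all libraries. Around its summit, at chr6:99521541-99521741 (+ strand, mm10), the sequence held 1 half-site, in capitals.
Foxp1 promoter: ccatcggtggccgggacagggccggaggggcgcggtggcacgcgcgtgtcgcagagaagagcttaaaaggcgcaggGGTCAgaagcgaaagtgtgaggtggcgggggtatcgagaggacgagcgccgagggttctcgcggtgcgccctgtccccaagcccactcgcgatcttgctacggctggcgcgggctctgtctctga

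**Figure D3:**
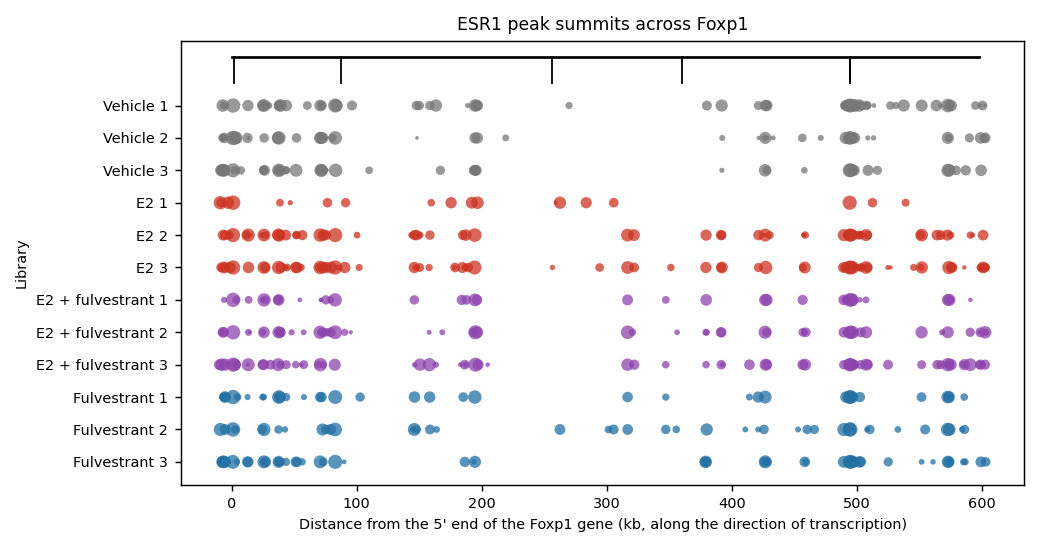
Summits of ESR1 peaks across Foxp1, by library (rows) and distance from the 5' end of the gene in kb along the direction of transcription. Larger points are peaks ranked higher in their own list, and ticks mark annotated transcription start sites. E2 replicate 1 has the fewest summits, with 19 peaks.

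The other FOXP genes had fewer peaks. Foxp4, whose product is closely related to FOXP1, had 11, 10 and 12 peaks in vehicle, 20, 14 and 8 in E2, 6, 7 and 12 in E2 plus fulvestrant, and 6, 28 and 6 in fulvestrant. Treatments overlapped, and the value of 28 came from fulvestrant replicate 2. Foxp2, a gene of neural circuits for speech and vocal learning, had 4, 1 and 6 peaks in vehicle and 10, 7 and 8 in E2. It had 1, 3 and 9 in E2 plus fulvestrant and 2, 6 and 5 in fulvestrant, so every E2 library was above every vehicle library, and both treatments with fulvestrant overlapped vehicle. Foxp3, the master factor of regulatory T cells, had 0 to 2 peaks in each library and none at its promoter in any.

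The FOXO genes had from no peak to 18 per library. Foxo3 (chr10:42181841-42276755, - strand) had 12, 8 and 7 peaks in vehicle, 7, 12 and 11 in E2, 10, 15 and 12 in E2 plus fulvestrant, and 10, 18 and 9 in fulvestrant. Foxo1, in contrast, had 3, 3 and 5 in vehicle, 1, 5 and 5 in E2, 2, 4 and 6 in E2 plus fulvestrant, and 5, 5 and 2 in fulvestrant. Treatments overlapped at both genes, and both had a promoter peak in all 12 libraries. Foxo6, expressed mainly in brain, had 8 peaks in E2 replicate 1 and 0 in the rest, fulvestrant replicate 2 with its 4 excepted. Foxo4 had no peak in the 3 vehicle libraries, 4, 2 and 1 in E2, 0, 0 and 1 when fulvestrant was added, and 1, 2 and 1 with fulvestrant alone. Every E2 and every fulvestrant library thus had a Foxo4 peak, and no vehicle library did.

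The FOXA genes had few peaks apart from Foxa3. Foxa1, which encodes the pioneer factor of ESR1 in breast cells, had 1 peak in fulvestrant replicate 1, 4 in each library that stood apart and none in the 9 others. Foxa3, better known from liver and gut, had 5, 4 and 5 peaks in vehicle, 10, 7 and 8 in E2, 4, 4 and 5 in E2 plus fulvestrant, and 4, 8 and 3 in fulvestrant. The E2 libraries were above all vehicle and all E2 plus fulvestrant libraries, with a mean of 8.33 ± 1.53 against 4.67 ± 0.577 and 4.33 ± 0.577 (SD, n = 3).

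Of the remaining members, Foxn3 and Foxk1 had the most peaks. FOXN3 is a repressor of cell cycle genes, and Foxn3 had 14 to 31 peaks, with all treatments overlapping. FOXK1 represses autophagy and atrophy genes and promotes glycolysis. Foxk1 (chr5:142401497-142462011, + strand) had 13, 11 and 9 peaks in vehicle, 18, 16 and 15 in E2, 12, 12 and 13 in E2 plus fulvestrant, and 9, 22 and 14 in fulvestrant. Each E2 library was above each vehicle and each E2 plus fulvestrant library, with means of 16.3 ± 1.53, 11 ± 2 and 12.3 ± 0.577 (SD, n = 3).

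The genes of mesenchymal factors have short bodies. Foxc2, a regulator of lymphatic and mesenchymal development, had 25.3 peaks per 100 kb of window, the highest of the 10 members with the most peaks. It had 7, 4 and 1 peaks in vehicle, 5, 9 and 9 in E2, 7, 4 and 4 in E2 plus fulvestrant, and 5, 8 and 6 in fulvestrant, with overlap between E2 and vehicle. Foxc1, its paralog, had 2, 3 and 3 in vehicle, 4, 5 and 5 in E2, 4, 3 and 5 in E2 plus fulvestrant, and 5 in each fulvestrant library. Foxs1, a gene of perivascular and neural crest derived cells, had 3, 3 and 2 in vehicle, 8, 7 and 5 in E2, 4, 5 and 5 in E2 plus fulvestrant, and 4, 10 and 4 in fulvestrant. For Foxc1 and Foxs1, vehicle was below both E2 and fulvestrant alone in every library.

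To ask whether E2 altered ESR1 peak number, the 3 E2 and 3 E2 plus fulvestrant libraries were pooled into one group and compared with the 6 not given E2. Of 15937 genes with a peak in at least 3 libraries, 29 were forkhead genes. No forkhead gene had groups that did not overlap in either direction, beside 0.163% of all genes higher and 0.0125% lower with E2. In two-sided exact permutation tests 1 member of 29 was below an unadjusted p of 0.05, as were 3.27% of all genes tested, and the lowest Benjamini-Hochberg adjusted p of the members was 1.0. No gene passed an adjusted p of 0.05 in this test. With 924 arrangements the smallest p is 0.00216, and 690 genes at that p would have been needed for one to pass. Without the 2 libraries that stood apart, 0 members were without overlap, beside 0.916% of all genes higher with E2 and 0.0125% lower.

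E2 alone was then compared with vehicle. At 7 members (24.1%) every E2 library exceeded every vehicle library, beside 10.9% of all genes tested, and at 0 members was it lower, beside 0.609%. Among these were Foxs1, Foxk1, Foxp2, Foxa3, Foxc1 and Foxo4. The mean differences were 4 peaks for Foxs1, 5.33 for Foxk1, 4.67 for Foxp2, 3.67 for Foxa3, 2 for Foxc1 and 2.33 for Foxo4. Over all members tested, 27 of 29 had a higher mean with E2 and 2 had equal means, whereas 76.8% of all genes had a higher mean. Some of these means rest on E2 replicate 1, which alone of the E2 libraries had Foxa1 peaks, while at Foxp1 it had the fewest. The same count without that library is not given here. With 3 libraries against 3 the smallest exact permutation p is 0.1, so no gene could pass, and the adjusted p of these 7 was 0.866. The E2 lists were longer, and per 10000 peaks of the list only Foxo4 of the 7 stayed above vehicle without overlap (1 member against 3.82% of all genes). Foxo4 had no peak in vehicle, so dividing by list length could not undo its separation. On that scale 4 members, Foxp1, Foxj2, Foxm1 and Foxn3, were lower with E2 in every library, against 16.5% of all genes. Without the 2 libraries that stood apart, 10 members were higher by peak number, the 7 above with Foxc2, Foxp1 and Foxl1, against 19.4% of all genes, and 0 lower, against 1.23%.

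Fulvestrant was next compared in the presence of E2. The E2 libraries exceeded the E2 plus fulvestrant libraries at 2 members, Foxk1 and Foxa3, beside 5.20% of all genes, and were lower at none, beside 0.803%. This comparison uses the same E2 libraries as the one with vehicle, so the values for Foxk1 and Foxa3 are not independent of those above. The adjusted p was 1.0 for both, from exact permutation tests with a smallest p of 0.1. Per 10000 peaks of the list no member was higher with E2 alone, beside 2.89% of all genes, and Foxn3 was lower, beside 9.60%. Without the 2 libraries that stood apart, 3 members, Foxk1, Foxa3 and Foxc2, were higher by peak number, beside 9.86%, and 0 lower, beside 1.69%.

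Fulvestrant alone was higher than vehicle at 3 members, Foxs1, Foxc1 and Foxo4, beside 3.65% of all genes, and lower at none, beside 0.489%. All 3 were also among those higher with E2 against the same vehicle libraries. The mean differences with fulvestrant were 3.33 peaks for Foxs1, 2.33 for Foxc1 and 1.33 for Foxo4. Per 10000 peaks of the list, Foxf2 and Foxo4 were higher, beside 3.45% of all genes, and Foxm1 was lower, beside 5.32%. At Foxo4, without a vehicle peak, this scaling could again not change the order. Without fulvestrant replicate 2, 3 members were higher by peak number, beside 4.98% of all genes, and 1, Foxp4, lower, beside 2.32%.

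Peaks of the 12 lists were merged where they overlapped, which gave 566 regions in the forkhead windows of 228284 in all. In 330 of them (58.3%) a single library had a peak, beside 64.2% of all regions, and E2 replicate 1 held 98 and fulvestrant replicate 2 held 77 of these. At least 6 libraries shared 95 regions, and all 12 shared 28 (4.95%, beside 3.42% of all regions). By the summit of the best peak, 333 regions were intronic, 141 lay within 3 kb of a transcription start site, 61 were intergenic and 31 exonic. Of the 141 promoter regions, 78 were at a start of a forkhead gene itself and 63 at that of another gene in the window.

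At 3 regions all E2 libraries and no vehicle library had a peak, 0.530% of the forkhead regions beside 0.344% of all regions. The reverse occurred at none, beside 0.0162%. The region chrX:101253372-101255229, upstream at -219 bp from the Foxo4 start, was best ranked. Its fold enrichment was 10.6, 3.84 and 3.72 with E2, 3.15, 4.14 and 3.52 with fulvestrant alone and 3.50 in E2 plus fulvestrant replicate 3, with no peak in the 5 other libraries. The summits in the E2 libraries rested on 35, 19 and 23 fragments. The peak is the same that set Foxo4 apart above. The sequence at chrX:101254209-101254409 (+ strand, mm10) held 2 half-sites, in capitals, that do not form an ERE.
Foxo4 promoter: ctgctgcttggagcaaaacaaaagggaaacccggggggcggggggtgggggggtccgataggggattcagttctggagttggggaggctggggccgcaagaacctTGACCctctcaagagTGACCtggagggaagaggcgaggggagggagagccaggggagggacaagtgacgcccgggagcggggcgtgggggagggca

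Both other regions lay on chromosome 8. At chr8:121115050-121115899, upstream at -760 bp from the Foxc2 start, fold enrichment was 3.38, 2.55 and 2.59 with E2 and 2.79 in fulvestrant replicate 2, and the 8 other libraries had no peak. At chr8:121127531-121128923, 487 bp downstream of the Foxl1 start and within the windows of Foxc2 and Foxl1, it was 7.49, 2.50 and 3.30 with E2 and 2.56, 3.89 and 2.49 with fulvestrant. E2 plus fulvestrant replicates 1 and 3 had 2.15 and 2.75 there. This region contains the Foxl1 ERE printed above, and FOXL1 is a factor of the mesenchyme beneath the gut epithelium. The Foxc2 sequence at chr8:121115311-121115511 (+ strand, mm10) held no half-site and so has no capitals.
Foxc2 promoter: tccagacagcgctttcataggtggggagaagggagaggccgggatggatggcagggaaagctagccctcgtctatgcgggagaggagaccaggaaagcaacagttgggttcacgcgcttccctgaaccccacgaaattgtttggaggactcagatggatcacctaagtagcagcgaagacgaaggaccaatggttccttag

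Without E2 replicate 1 and fulvestrant replicate 2, the same count with 2 E2 libraries was 17 regions (3.0%), beside 3.25% of all regions, and 7 of these were at Foxp1. In that direction the 2 shares were close, and the reverse occurred at 0 forkhead regions and 0.0197% of all.

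Against E2 plus fulvestrant, 2 regions had a peak in all E2 libraries and none with the antagonist, 0.353% beside 0.207% of all regions, and the reverse occurred at none, beside 0.0732%. One was the Foxc2 promoter region. The other was chr10:42237001-42238814 in a Foxo3 intron, 39471 bp downstream of the nearest start, with fold enrichments of 5.79, 2.12 and 3.51 with E2 and 3.49 in vehicle replicate 1 alone among the rest. When both libraries that stood apart were left out, the count was 9 regions (1.59%), beside 1.51% of all regions, and the reverse was seen at none, beside 0.0832%.

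Fulvestrant alone had a peak in 3 of 3 libraries where vehicle had 0 of 3 at 5 regions (0.883%, beside 0.144% of all regions). They included the Foxo4 and Foxl1 regions, and exonic or intronic regions at Foxc1 (chr13:31810589-31811791), Foxk1 (chr5:142456943-142458564) and Foxp1 (chr6:98936411-98937892). At 1 region the order was reversed (0.177%, beside 0.0924%). This was chr6:99130156-99131901, 392 kb into Foxp1, with fold enrichments of 3.38, 2.55 and 2.17 in vehicle. It also had a peak in E2 replicates 2 and 3 (3.11 and 4.10) and in E2 plus fulvestrant replicates 2 and 3 (2.99 and 2.75), and none in fulvestrant alone. Without fulvestrant replicate 2 the shares were 1.24% of forkhead regions with a peak in fulvestrant only, beside 0.489% of all, and 0.530% in vehicle only, beside 0.147%. In this Foxp1 region the vehicle summits rested on 25, 11 and 14 fragments. The sequence at chr6:99130778-99130978 (+ strand, mm10) held 1 half-site, in capitals.
Foxp1 intron: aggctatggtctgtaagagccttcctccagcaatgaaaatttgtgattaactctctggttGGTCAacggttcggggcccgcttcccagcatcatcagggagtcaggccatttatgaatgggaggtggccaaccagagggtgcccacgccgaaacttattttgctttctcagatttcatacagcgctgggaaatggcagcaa

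A different pattern was found at chr6:99205636-99206542, 317 kb into Foxp1, a region chosen after its values were seen. It had a peak in E2 replicates 2 and 3 with folds of 4.46 and 4.60, in all 3 E2 plus fulvestrant libraries with 3.04, 5.26 and 3.74, and in fulvestrant replicates 1 and 2 with 2.94 and 2.98. No vehicle library had a peak there, nor did E2 replicate 1. Across the 6 libraries given E2 and the 6 not given it, no forkhead region was present in all of one side and none of the other, beside 0.00394% of all regions with it on the E2 side and 0% on the other. It was again 0 when both libraries that stood apart were left out, beside 0.151% and 0.000438%. In two-sided Fisher's exact tests of presence, none of 49642 regions passed an adjusted p of 0.05, 0% of those tested. At an unadjusted 0.05, 369 regions (0.743%) and 0 of the 149 forkhead regions tested did so. Complete separation of the 2 sides gives the smallest p this test can reach. Too few regions had it for any to pass after adjustment, so the absence of calls allows no conclusion.

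**Figure D4:**
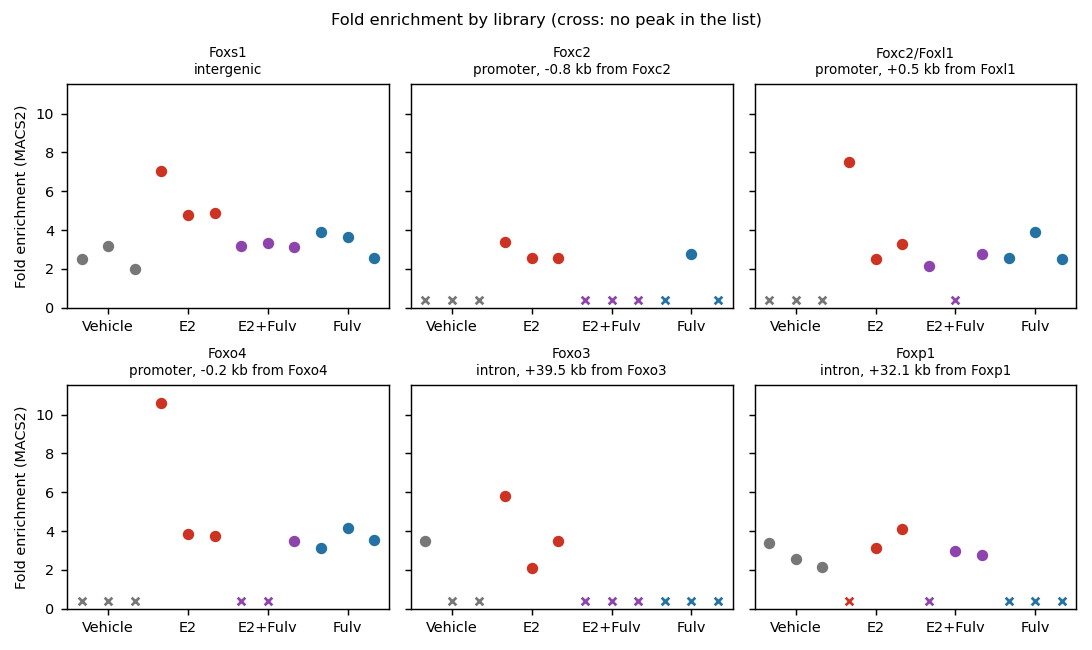
Fold enrichment over local background, on a linear axis, at 6 forkhead regions in the 12 libraries by treatment. Points are libraries and crosses mark libraries without a peak there. At the Foxo4 promoter all 3 E2 and all 3 fulvestrant libraries have a peak and no vehicle library does, and the highest fold, 10.6, is that of E2 replicate 1.

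Where all 12 libraries had a peak, enrichment itself could be compared. The fold enrichment of each library's best peak was taken at 7816 such regions, 28 of them in forkhead windows. It was put on a log2 scale, centered on each library's median and tested with limma. Besides the Foxp1 promoter, the best ranked of the 28 were the promoters of Foxj3 (chr4:119538570-119541222), a gene active in muscle and germ cells, and Foxn3 (chr12:99390933-99394277), on average in the top 4.95% and 6.71% of a library's list. With E2 given or not given, 13 regions (0.166%) passed an adjusted p of 0.05 with higher enrichment and 0% with lower, and 0 of the 28 forkhead regions passed, nor did any reach an unadjusted 0.05. The forkhead differences ran from -0.35 to 0.27, with a median of -0.04 on the log2 scale, beside -0.02 over all regions. The median half-width of a 95% interval was 0.374 on the same scale.

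The 3 regions with the smallest p were at Foxp4, Foxp1 and Foxs1. At chr17:47862288-47868903, at the 3' end of Foxp4, the difference was -0.35 (95% interval -0.79 to 0.09). At chr6:99527809-99532218, upstream of the Foxp1 5' end, the place of each library's best peak differed. It lay at -9.08 kb from that end in E2 replicate 1 and at -7.11 kb in vehicle replicate 1. The difference there was -0.24 (-0.59 to 0.10), from values that rest on 12 to 22 fragments. In the region across Foxs1 and its downstream flank it was 0.23 (-0.13 to 0.60). The limma adjusted p was 1.00 for each.

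The Foxs1 region was also the 1 forkhead region in at least 6 libraries with an ERE within 100 bp of its best summit. At each library's best peak in the region, fold enrichment was 2.50, 3.18 and 2.01 in vehicle and 7.05, 4.76 and 4.87 in E2. It was 3.18, 3.32 and 3.12 in E2 plus fulvestrant, and 3.91, 3.66 and 2.58 in fulvestrant. The best peak need not cover the ERE, and in vehicle replicate 2 no peak did. All E2 libraries were above all others before centering. After centering, the E2 minus vehicle difference was 0.29 (95% interval -0.22 to 0.81), with a limma adjusted p of 0.774.

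**Figure D5:**
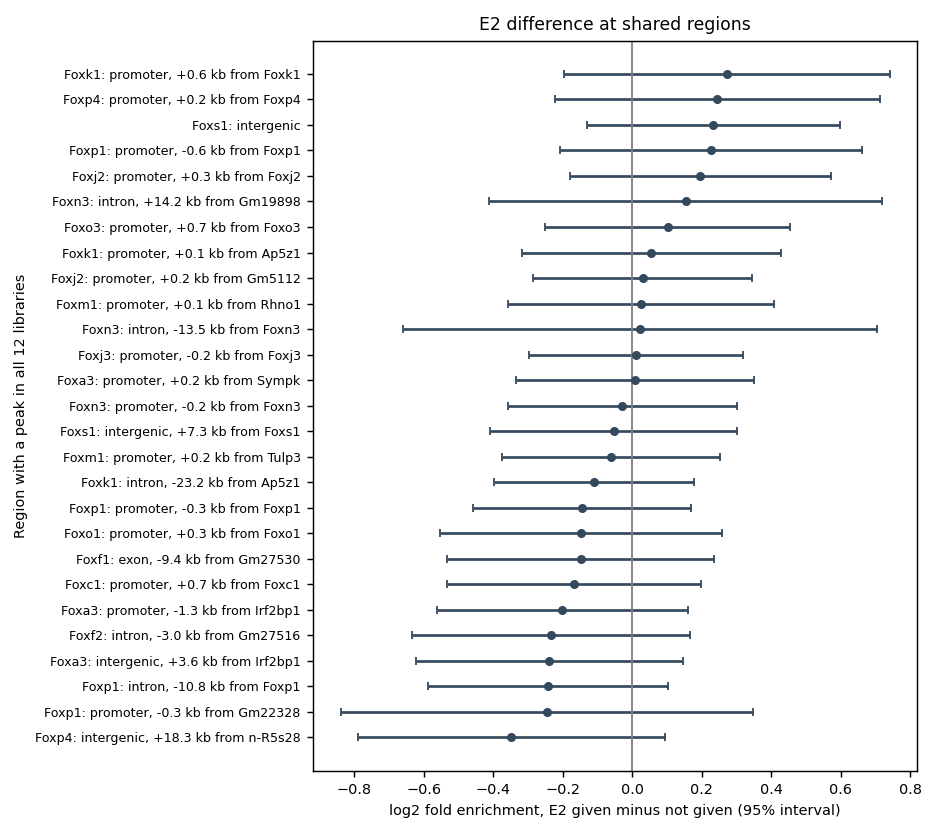
Difference in log2 fold enrichment between libraries given E2 and not given it, at 27 of the forkhead regions with a peak in all 12 libraries, with 95% intervals from limma (n = 6 against 6). The differences run from -0.35 to 0.27, and every interval includes 0.

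In the contrasts of single treatments, 0 of 28 forkhead regions passed. E2 minus vehicle called 0% of all 7816 regions, E2 minus E2 plus fulvestrant 0.0128% as lower and 0% as higher, and both E2 plus fulvestrant minus vehicle and fulvestrant minus vehicle 0%. At an unadjusted 0.05, E2 minus vehicle had 2 of 28 forkhead regions, beside 6.45% of all regions. They were the Foxp4 region with -0.70 and a Foxf2 region (chr13:31628648-31630361) with -0.61. Both were named after their values were seen. The same Foxf2 region was the 1 below it in E2 minus E2 plus fulvestrant, with -0.63, beside 6.69% of all regions. E2 plus fulvestrant minus vehicle had 0, beside 3.33%, and fulvestrant minus vehicle 0, beside 1.88%. Centering decides the direction here. The E2 libraries had the higher median folds, and without centering the forkhead median of E2 minus vehicle was 0.76 in place of -0.07. Uncentered, 15 of all 7816 regions and 0 forkhead regions passed, with a lowest forkhead limma adjusted p of 0.0713. At an unadjusted 0.05 there were 13 forkhead regions. The share of all regions at that level is not given here, and the median folds were those of all regions. The 13 therefore says nothing particular to the members. Without E2 replicate 1 alone, 0 forkhead regions were below an unadjusted 0.05 for E2 minus vehicle, and the adjusted test called 55 of all regions there and 137 for E2 plus fulvestrant minus vehicle, 0 of them forkhead regions. Without the 2 libraries that stood apart, 8.95% of 12029 regions passed for E2 given minus not given and 0 of 39 forkhead regions did. In that setting E2 minus vehicle called 4.66% of all regions, E2 plus fulvestrant minus vehicle 5.69%, E2 minus E2 plus fulvestrant 0.0416% and fulvestrant minus vehicle 0.0249%, again with 0 forkhead regions in each. For E2 given minus not given, the lowest limma adjusted p among the 39 was 0.123, at the Foxo1 promoter region chr3:52267634-52270465, with a difference of -0.42 (95% interval -0.75 to -0.09). The test of whether the E2 difference itself depended on fulvestrant passed at 0 of 7816 regions, with a lowest forkhead adjusted p of 0.680.

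Motifs at the best summit of each region were searched within 100 bp on both strands. An ERE with at most 1 mismatch was found at 2 of 566 forkhead regions (0.353%, Wilson 95% interval 0.0970% to 1.28%), beside 1.36% of all regions. At the windows centered 2 kb upstream the shares were 0.883% and 0.832%. Beside Foxs1, the other was chr6:99175246-99175968 in a Foxp1 intron, with a peak in 4 libraries and none of vehicle or E2 alone, printed here from chr6:99175499-99175699 (+ strand, mm10). Its capitals mark the half-site positions of the ERE only, and a lone TGACC elsewhere in the sequence stays in lower case.
Foxp1 intron with an ERE: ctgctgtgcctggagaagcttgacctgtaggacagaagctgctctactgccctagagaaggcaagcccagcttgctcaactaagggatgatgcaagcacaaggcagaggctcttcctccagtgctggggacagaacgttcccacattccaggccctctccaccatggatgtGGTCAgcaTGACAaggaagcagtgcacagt

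Counting an ERE at any peak of a region raised the share to 1.59%, beside 1.85% of all regions. This was chosen after seeing the data, since covered EREs printed above lie away from the best summit. A single half-site, GGTCA or TGACC, was found at 29.7% of forkhead regions and 29.0% of all regions. The forkhead motif TGTTTAC was found at 1.77%, beside 2.24%, and the AP-1 motif TGANTCA at 3.0%, beside 5.96%. In the 95 regions of at least 6 libraries neither of these motifs was found, which allows shares up to 3.89% (Wilson 95% bound), beside 2.40% and 8.31% of all such regions. These are matches of letters only, and the intervals cover counting error only.

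A list of 30 genes upstream and downstream of FOXO proteins was examined alongside, from the insulin receptor and AKT kinases to FOXO target genes. Of these, 28 (93.3%) had a peak in all 12 libraries, against 47.1% of all genes, and 29 were tested. Trim63, which encodes a muscle ubiquitin ligase, had peaks only in the 2 libraries that stood apart. With E2 against vehicle, 2 of 29 were higher without overlap. One of them was Insr, the insulin receptor, with 6, 5 and 4 peaks in vehicle and 7, 9 and 9 with E2. The count of 2 is a smaller share than the 10.9% of all genes. With E2 against E2 plus fulvestrant, 1 was lower, Cdkn1b, a cell cycle inhibitor, at 5, 6 and 8 against 9, 9 and 10, and 0 were higher, beside 0.803% of all genes lower and 5.20% higher. With fulvestrant against vehicle, 2 were higher, beside 3.65% of all genes. Cdkn1a, another cell cycle inhibitor, had 10, 10 and 9 with fulvestrant and 8, 5 and 3 in vehicle, and Klf15, a metabolic factor, had 4, 7 and 3 and 0, 2 and 0. Between the 6 libraries given E2 and the 6 not given it, 0 of 29 did not overlap.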

How the data were processed

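ESR1 ChIP-Seq peak lists of 12 libraries were used, 3 per treatment, with groups and replicate numbers from the labels. The authors' methods name Trimmomatic 0.39 for trimming single-end reads, Bowtie2 for alignment to mm10, Picard 2.21.4 for duplicate removal and MACS2 for peak calling. Whether the input served as control, and whether blacklisted regions were removed before deposit, is not given in the sources used here. For each peak the deposited lists hold a fold enrichment over local background, which is a ratio, the summit position, and −log10 p-value and −log10 q-value columns, all computed by the authors. Lists were kept by p, with q-values above 0.05 at 5.64% to 26.1% of peaks. All peaks were used, and read totals were not part of the lists. The study's batch removal and count model need reads, so they could not be run.

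Peaks were assigned to gene bodies plus 10 kb, merged by overlaps of at least 1 bp, and annotated with GENCODE vM21, with promoters within 3 kb of a start. Fold and p together gave whole fragment numbers at 100% of tested summits and a relative depth. Peak numbers were compared with two-sided exact permutation tests, presence with Fisher's exact test, and log2 folds with limma 3.58.1 (R 4.3.3), each with Benjamini-Hochberg adjustment over all genes or regions tested. Scripts used Python 3.11.15 and SciPy 1.17.1 and were tested on simulated data. The members and gene lists were chosen with earlier results of these data known. Named were Foxa1, the FOXO and FOXP genes, the 8 members with the most peaks, those without overlap between groups, those with an ERE in a region of at least 6 libraries, and those with no peak. Any other member was named after its values were seen. Some genes and a sequence are not reported here. Regions named were the 3 best ranked per comparison, and the 3 with the smallest limma p. Alternatives covered thresholds, window size, list scaling, motif settings, centering, repeat-masked peaks, left-out libraries and a replicate block.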

Additional observations from a re-analysis of the deposited data

Results flagged for a closer look

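In 10 of 44 groups of 6 libraries, split by whether E2 was given, 1 library lay far from the others. The limit used gives about 1 in 20 for independent, normally distributed values. Many counts here are small and the groups share libraries, so 1 in 20 is not their chance rate. All 10 came from E2 replicate 1 or fulvestrant replicate 2. E2 replicate 1 had 4 Foxa1 peaks where the 5 other libraries given E2 had 0. Fulvestrant replicate 2 had 4 Foxa1 peaks where the next library without E2 had 1. Foxo6 had 0 peaks in all libraries but these, where it had 8 in E2 replicate 1 and, in fulvestrant replicate 2, 4. In fulvestrant replicate 2, Foxp4 had 28 peaks with 12 in the next library, and Foxs1 had 10 with 4 in the next. The forkhead windows held 264 peaks in fulvestrant replicate 2, with 166 in the next library without E2. The share of the list in these windows was 0.213% in E2 replicate 1, with 0.305% in the next library given E2. Members with a peak numbered 42 in E2 replicate 1, with 26 in the next, and 38 in fulvestrant replicate 2, with 25 in the next. The repeat-masked share, depth and GC content of both libraries are given above, and their part in these values was not tested.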

How the results depend on the processing

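Of 136 alternatives of the main results, 97 stayed within their limits, and where a value moved the cause was not tested. Results without any forkhead call that stayed so count among the 97. Some of these came from tests with little room for a call, so that number does not measure stability. Members with a peak in all 12 libraries numbered 4 in place of 19 when −log10 q had to reach 10, a setting whose share of all genes is not given here. The excess of forkhead peaks per library with E2 over vehicle fell from 67.3 to 37.3 under the same threshold. For peak number per gene without overlap, E2 against E2 plus fulvestrant gave 2 members, both higher, and 1 per 10000 peaks of the list, which was Foxn3 and lower with E2 (12.5% of all genes in either direction), 1 at q of at most 0.05 (7.27%) and 4 at the stricter threshold (15.0%). Fulvestrant against vehicle gave 3, and 1 at each q threshold (4.56% and 4.10% of all genes) and 1 with windows of 3 kb (3.32%). Regions in all of one treatment and none of the other numbered 3 for E2 against vehicle, beside 0.344% of all regions with E2 only and 0.0162% with vehicle only. They numbered 17 without E2 replicate 1 and fulvestrant replicate 2, beside 3.25% and 0.0197% in that order, and 6 at the stricter threshold. For E2 against E2 plus fulvestrant they numbered 2, beside 0.207% of all regions with E2 only and 0.0732% with the other only. Without both libraries they numbered 9, beside 1.51% and 0.0832%, with 4 at the stricter threshold and 1 without repeat-masked peaks. Shares of all regions at the stricter threshold and without repeat-masked peaks are not given here, so those counts say nothing particular to the members. The ERE share was 0% with no mismatch allowed and 1.59% at any peak of a region. With both directions counted, 2 genes of the FOXO list did not overlap between E2 and vehicle, beside 10.9% of all genes higher and 0.609% lower. Per 10000 peaks there were 6, beside 3.82% higher and 16.5% lower, and without both libraries 4, beside 19.4% higher and 1.23% lower. The last of these settings, the scaled FOXO count, the ERE at any peak and limma on the same regions without both libraries were chosen after seeing the data.

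Leaving out 1 library at a time gave 8 to 11 members, beside 14.2% to 23.7% of all genes, for E2 against vehicle (11 without E2 replicate 2), 2 to 6, beside 9.13% to 15.9%, for E2 against E2 plus fulvestrant (6 without E2 replicate 2 or 3, 5 without E2 plus fulvestrant replicate 3) and 3 to 7, beside 6.74% to 12.9%, for fulvestrant against vehicle (7 without fulvestrant replicate 3, 6 without vehicle replicate 1, 5 without fulvestrant replicate 1 or vehicle replicate 2). Region counts ran from 6 to 17, beside 0.558% to 3.27% of all regions, for E2 against vehicle (17 without E2 replicate 1 and 6 without each of the others) and from 4 to 12, beside 0.527% to 1.59%, for E2 against E2 plus fulvestrant (12 without its replicate 1, 9 without E2 replicate 1). Smaller groups separate more easily, so these counts can only grow. Forkhead calls in the permutation test with E2 given or not given, in Fisher's exact test and in limma were 0 in every run. The smallest p of the first 2 tests left little room for a call.

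Leaving out libraries, or dropping the filter on genes, cannot undo a separation at a single gene. Nor can list scaling at Foxo4, which had no peak in vehicle. Such settings were unchanged in advance and count among the 128 below, so that number does not measure stability. Of 156 alternatives for single genes, 128 were unchanged, 24 lost the separation and 4 reversed, all per 10000 peaks of the list. With E2 minus vehicle these were Foxk1 at -0.50, Foxa3 at -0.045 and Foxc1 at -0.030, and with E2 minus E2 plus fulvestrant Foxk1 at -0.24.

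Same-numbered replicates of different treatments did not regularly deviate together, with r over 0.1 in 3 of 18 pairs, and the numbers were not taken as pairs. Across regions r ran from -0.495 to 0.352. Both ends were E2 with fulvestrant, the treatments that hold the libraries that stood apart. The check therefore cannot tell whether the numbers are batches. With a replicate block, non-overlap within numbers was found at 7 members for E2 against vehicle (22.1% of all genes), 4 for E2 against E2 plus fulvestrant (14.9%) and 6 for fulvestrant against vehicle (9.07%), and the blocked tests called 0 forkhead genes or regions with E2 given or not given.

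E2 replicate 1 had a median of 10 fragments at a summit, against 19 to 23 in 10 libraries, and the part of depth in its values was not tested.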
